A study of Mus musculus with 2 samples.

Results

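Resident macrophages of injured skeletal muscle were defined here as cells with a transcript count (unique molecular identifier, UMI) of at least 2 of the 3 complement genes C1qa, C1qb and C1qc and of at least 2 of the 4 resident genes Lyve1, Folr2, Cd163 and Cbr2, and with none of Pdgfra, Cdh5, Cd3e and Cd79a. These genes mark fibro-adipogenic progenitors (FAPs), endothelium, T cells and B cells. The rule chose 779 of 13432 cells, 366 of 6354 in the WT library and 413 of 7078 in the GSDME-KO library. Because the rule used their RNA, the C1q and resident genes were selected on and their levels are given as a description. The cells came from digested gastrocnemius of male mice at day 14 after cardiotoxin, a snake venom toxin that kills muscle fibers. WT mice were C57BL/6J and GSDME-KO mice lacked gasdermin E in all cells. The study used 5 mice per genotype. Whether their cells were pooled is not given in the sources used here, and each genotype had 1 library. With 1 library per genotype no test between genotypes was possible: each difference is between those libraries, every interval is at 95% and covers counting error only, and genotype, animals and library preparation cannot be told apart.

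Tissue-resident macrophages settle in muscle interstitium and renew largely in place. They take up debris and hyaluronan, clear hemoglobin and support blood vessels, nerves and the stem cells of the muscle. Recruited monocytes enter after injury, pass through a lipid-laden, phagocytic state and can acquire resident traits as repair proceeds. LYVE1 is a hyaluronan receptor, FOLR2 a folate receptor, CD163 the hemoglobin-haptoglobin scavenger receptor and CBR2 a carbonyl reductase. The study asked whether loss of GSDME, a pore-forming protein of lytic cell death, alters these cells and the transcription factors KLF4 and JUN in them.

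The start regions of 3 of the genes that chose the cells are shown because the study places KLF4 and JUN at the Cd163 promoter and lists Folr2 among their targets, and because the Cbr2 level was not lower in GSDME-KO resident macrophages. Of the 4 resident genes, Folr2, Cd163 and Cbr2 were in the RefSeq promoter table of build GRCm38.p6 (mm10), which holds 250 bases before and 50 after each start, and Lyve1 was not. Capitals mark CACCC on either strand, a box that Kruppel-like factors can bind, and the AP-1 site TGANTCA, which is its own reverse complement. The Cd163 window is chr6:124304401-124304700 on the plus strand and the Cbr2 window is chr11:120731972-120732271 on the minus strand. Folr2 has 2 start windows in the table, and the one shown is chr7:101845282-101845581 on the minus strand. All are read 5′ to 3′.
Cd163: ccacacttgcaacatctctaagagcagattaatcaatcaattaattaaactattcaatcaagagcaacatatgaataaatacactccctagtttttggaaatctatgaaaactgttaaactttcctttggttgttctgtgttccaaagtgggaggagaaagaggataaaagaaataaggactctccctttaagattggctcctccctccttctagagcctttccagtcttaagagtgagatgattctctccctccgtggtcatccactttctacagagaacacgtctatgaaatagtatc
Cbr2: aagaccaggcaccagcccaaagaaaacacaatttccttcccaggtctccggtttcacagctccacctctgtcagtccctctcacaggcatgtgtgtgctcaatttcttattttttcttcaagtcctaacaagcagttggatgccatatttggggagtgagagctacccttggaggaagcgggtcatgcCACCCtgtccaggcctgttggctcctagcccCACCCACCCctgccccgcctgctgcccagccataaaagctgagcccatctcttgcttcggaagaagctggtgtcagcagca
Folr2: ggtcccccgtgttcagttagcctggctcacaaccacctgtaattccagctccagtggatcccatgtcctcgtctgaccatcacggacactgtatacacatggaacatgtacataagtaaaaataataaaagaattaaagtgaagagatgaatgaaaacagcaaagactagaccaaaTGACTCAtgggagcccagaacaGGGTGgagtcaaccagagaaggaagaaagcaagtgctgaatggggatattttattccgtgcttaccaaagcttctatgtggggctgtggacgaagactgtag
The Cbr2 window held 3 CACCC boxes, 2 of them overlapping and counted separately, and the Cd163 window held none. The Folr2 window shown held 1 box and 1 AP-1 site, and its other window held 2 boxes and no AP-1 site. The box was present in 57.5% of 32851 promoters of the same length. The AP-1 site was in neither the Cd163 nor the Cbr2 window, and 7.81% of the promoters held it. The promoter region that the study assayed at Cd163 was longer than these windows. These are letter matches only, and they say nothing of what binds there.

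The share of resident macrophages among all cells was 5.76% (5.20 to 6.36) in WT and 5.83% (5.30 to 6.41) in GSDME-KO. The difference was 0.0748 points (-0.721 to 0.865), and the intervals overlapped. Among C1q cells, meaning all 808 WT and 990 GSDME-KO cells that passed the C1q and lineage conditions, resident macrophages were 45.3% in WT and 41.7% in GSDME-KO, a difference of -3.58 points (-8.17 to 1.02). The share depended on depth. When each cell was thinned to 1000 UMIs before the rule was applied, 190 of 737 WT and 159 of 911 GSDME-KO C1q cells passed, 25.8% against 17.5%, and the difference was -8.33 points (-12.3 to -4.34). When F13a1 and Mrc1 replaced the 4 resident genes, the shares were 67.0% and 67.3%, a difference of 0.317 points (-4.03 to 4.69). The size of the difference thus depended on the depth and on the genes used to choose the cells.

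Cells with all 4 resident genes were a smaller share in GSDME-KO. Of the C1q cells, 10.3% (8.27 to 12.6) in WT and 6.26% (4.83 to 7.96) in GSDME-KO had all 4 resident genes, a difference of -4.01 points (-6.66 to -1.46), whereas those with only 1, just outside the rule, were 18.1% and 24.7%. Those with 2, just inside it, were 21.3% and 21.5%. Lyve1 was seen in 22.4% of WT and 16.8% of GSDME-KO C1q cells, and Cd163 in 23.8% and 18.1%. Folr2, at 51.2% and 55.4%, and Cbr2, at 45.5% and 44.4%, did not share that direction. Within the chosen cells 93.2% of WT and 95.6% of GSDME-KO had Folr2, against 47.5% and 38.5% with Lyve1.

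**Figure D1:**
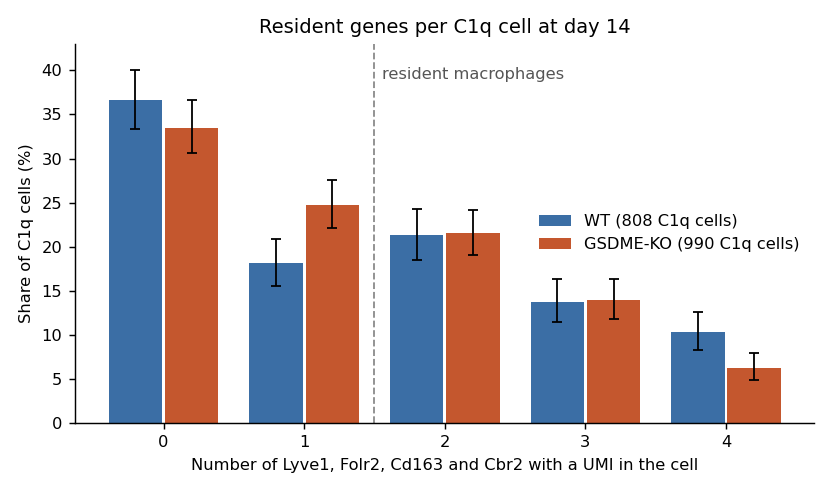
Share of C1q cells (y axis, percent) by the number of Lyve1, Folr2, Cd163 and Cbr2 with a UMI (x axis), for 808 WT and 990 GSDME-KO cells; error bars are exact binomial 95% intervals. The bars at 4 genes stand at 10.3% and 6.26%, and those at 1 gene at 18.1% and 24.7%.

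The depth of the chosen cells was similar in the libraries. The median was 5291 UMIs per resident macrophage in WT and 5608 in GSDME-KO, with 2031794 and 2328935 UMIs in all. Levels are UMIs per 1000000 of these sums (CPM). The other C1q cells, which had fewer than 2 resident genes, numbered 442 and 577. All remaining cells numbered 5546 and 6088 and show what each library did as a whole. The libraries shared 4 cell barcodes. Gsdme RNA did not separate the genotypes in resident macrophages, at 3.94 CPM in WT and 5.15 in GSDME-KO from 20 UMIs in all (log2 ratio 0.39, -1.02 to 1.88), so the labels were not checked by it. UMIs from a part of the transcript that the deletion leaves would be counted too, but where the Gsdme UMIs lay in the transcript was not tested.

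RNA of other cell types was present at low levels. The 10 FAP markers summed to 2947 CPM in WT and 711 in GSDME-KO resident macrophages, against 42515 and 42604 in the remaining cells, with Pdgfra at 0 by the rule. In WT, 9 cells with at least 50 such UMIs held 76.8% of 5988 FAP marker UMIs. In GSDME-KO, 2 such cells held 11.8% of 1656. All 8 compared FAP markers were lower in GSDME-KO resident macrophages, with a median log2 ratio of -1.78. Fmod, a collagen-binding proteoglycan, was at 148 CPM in WT and 9.02 in GSDME-KO, and 143 of its 301 WT UMIs were in 1 cell. Col1a1 and Col1a2, the chains of type I collagen, had 796 of 1372 and 886 of 1446 WT UMIs in 1 cell each. The matrix genes Clec3b, Thbs4, Sparc, Fbn1, Mmp2 and Dcn, and the lipid enzyme gene Chpt1, with 162 of 234 WT UMIs in 1 cell, were also among the 12 lowest ratios. Fn1, encoding fibronectin, was at 181 and 45.5 CPM, with 85 of 367 WT UMIs in 1 cell. Without the 9 WT and 2 GSDME-KO cells rich in FAP markers, the list's median was -0.24, and the log2 ratio of Col1a2 went from -2.91 to -0.38, of Dcn from -1.80 to -0.09 and of Mmp2 from -2.28 to -0.08. The Fn1 ratio, -1.99 with them, was -1.57 without them. The study's methods name doublet removal before the table was made, and none was added here, so whether these droplets held more than 1 cell was not tested. The 11 muscle markers summed to 471 and 322 CPM, while in the other C1q cells they were at 478 and 2101. Endothelial markers summed to 120 and 104 CPM with Cdh5 at 0, lymphocyte markers to 18.7 and 16.7 with Cd3e and Cd79a at 0, dendritic cell markers to 62.0 and 69.6, and neutrophil markers to 119 and 128.

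The cells carried the markers of resident macrophages that the rule did not use. Of 23 such genes, 19 were at least 2-fold higher in resident macrophages than in other C1q cells in both libraries, and none was 2-fold lower. Over all 8028 genes compared, 3.66% were at least 2-fold higher in both libraries and 2.48% were at least 2-fold lower. Because these are genes of the cells that the rule divided, the contrast is a description and no test. F13a1, the coagulation factor XIII subunit typical of these cells, was at 1358 CPM in WT resident macrophages and 229 in other WT C1q cells, and at 1292 and 295 in GSDME-KO. Mrc1, the mannose receptor, was at 1575 against 566 CPM in WT and 1724 against 741 in GSDME-KO. Both markers were thus higher in the chosen cells in each library, while none of 12 general macrophage genes differed by 2-fold in both. Among these, Csf1r, the receptor for the macrophage growth factor, was on the higher side at 1113 against 587 CPM in WT and 1109 against 675 in GSDME-KO, and Cd68 was at 518 against 522 and 596 against 532.

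The sharpest contrasts were lectins and opsonins. Cd209f and Cd209g, C-type lectins, were at 157 and 86.6 CPM in WT resident macrophages and at 3.12 and 1.56 in other WT C1q cells. In GSDME-KO they were at 101 and 49.4 CPM against 3.04 and 2.43. Fcna, a ficolin that opsonises microbes, was at 176 against 5.85 CPM in WT and 122 against 8.50 in GSDME-KO. C4b, a complement component, was at 240 against 16.4 and 156 against 17.9 CPM. Few cells held these lectins: after thinning to 1000 UMIs, Cd209f was seen in 8.19% of WT and 6.97% of GSDME-KO resident macrophages, against 0.130% and 0.0518% of Pdgfra cells, a background from free RNA. Before thinning the shares were 14.2% and 13.1%. Thinning left out 12 of 366 and 11 of 413 resident macrophages, and the Pdgfra cells had median depths of 8086 and 8698 UMIs.

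Secreted factors and receptors completed the set. Ednrb, the endothelin B receptor, was at 319 CPM in both libraries' resident macrophages, against 23.0 and 43.7 in other C1q cells. Ccl24, an eosinophil chemokine, was at 390 and 411 CPM against 32.8 and 82.0. Tslp, an epithelial-type cytokine, was at 37.9 and 56.2 CPM against 3.12 and 9.11. The remaining genes with the largest contrast in both libraries were Timd4, a phosphatidylserine receptor for dying cells, Colec12, a scavenger collectin, Plekhg5 and Selenbp1. Gas6, which bridges dying cells to their receptors, was at 561 and 606 CPM against 116 and 190. Mucl1 stood highest of all by ratio, but 309 of 310 WT UMIs were in 1 cell.

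**Figure D2:**
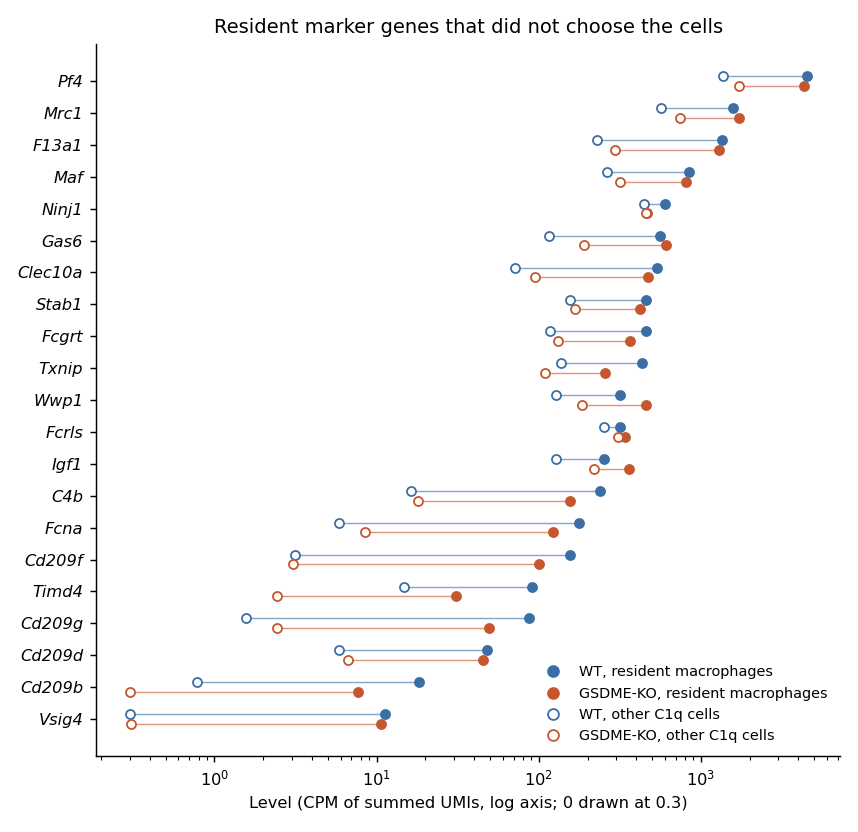
Level in CPM (x axis, log scale, 0 drawn at 0.3) of 21 of the 23 resident marker genes that were not used to choose the cells, in resident macrophages (filled) and other C1q cells (open) of each library. Filled points lie to the right of open points for nearly every gene, most widely for Cd209f at 157 against 3.12 CPM in WT.

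Genes lower in resident macrophages than in other C1q cells included cytokine receptors, proteases, survival factors and genes of red cells. Il7r, the interleukin-7 receptor, was at 6.89 CPM in WT resident macrophages and 107 in other WT C1q cells, and at 9.02 and 144 in GSDME-KO. Ccl5, a T cell chemokine, was at 5.41 against 128 and 3.44 against 115 CPM. Mmp12, macrophage elastase, was at 21.7 against 143 and 3.01 against 119 CPM. Bcl2a1d, a survival factor of the BCL2 family, was at 37.9 against 343 and 61.4 against 384 CPM, and Bcl2a1a shared its direction, although these genes are near-identical copies whose reads cannot be parted with certainty. The hemoglobin genes Hba-a1, Hba-a2 and Hbb-bs were also lower, as were Ear2, F10 and Tnip3. Hbb-bs was at 19.2 against 282 CPM in WT and 30.1 against 514 in GSDME-KO, and the red cell list summed to 728 and 2284 CPM in the remaining cells. Of 18 lipid-associated genes, 7 were at least 2-fold lower in both libraries, against 2.48% of all genes compared. Gpnmb, a lysosomal glycoprotein of that state, was at 29.0 against 181 and 37.4 against 205 CPM, while Apoe, the abundant lipid carrier, was near-equal at 24429 against 22912 and 22336 against 21111 CPM.

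Between genotypes, 7691 genes had at least 20 UMIs over both libraries' resident macrophages and at least 10 CPM in 1 library. Of these, 439 (5.71%) were at least 1.5-fold higher and 936 (12.2%) at least 1.5-fold lower in GSDME-KO. The counts given below for gene lists stand against these shares. The median log2 ratio of GSDME-KO over WT was -0.08 in resident macrophages and -0.01 for the same genes in other C1q cells and in the remaining cells. When ratios were centred on the median, 588 genes were higher and 761 lower, so the excess of lower genes depended in part on the scaling. A stricter floor of 100 UMIs left 5002 genes, 222 of them higher and 294 lower.

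Interleukin-1 family genes were among the most elevated in GSDME-KO resident macrophages. Il1b, the inflammatory cytokine, was at 72.8 CPM (61.6 to 85.6) in WT and 302 (280 to 325) in GSDME-KO, a log2 ratio of 2.05 (1.79 to 2.32). Its UMIs came from 39 WT and 77 GSDME-KO cells. Il1rn, the antagonist of the interleukin-1 receptor, was at 105 and 357 CPM (log2 ratio 1.76, 1.54 to 1.99). Il1a was at 10.8 and 49.4 CPM. These cytokines were not particular to the chosen cells: the log2 ratio of Il1b was 2.33 in other C1q cells, where its level was 397 and 1988 CPM, and 0.94 in the remaining cells. Thinned to 1000 UMIs, 4.80% of WT and 12.2% of GSDME-KO resident macrophages had a UMI of Il1b, a difference of 7.39 points (3.43 to 11.4), while Pdgfra cells were at 0.391% and 0.570%. Before thinning, the shares were 10.7% and 18.6%.

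Of 13 compared genes on the inflammatory cytokine list, 6 were at least 1.5-fold higher in GSDME-KO and none lower, against 5.71% higher over all compared genes. The higher genes were Il1a, Il1b and Osm, the antagonist Il1rn, the anti-inflammatory Il10, and Tnfaip3. The list thus mixed genes that drive inflammation with genes that restrain it, and its count is not one of inflammatory cytokines alone. The list's median log2 ratio was 0.53. The same list had a median of 0.23 in other C1q cells and 0.55 in the remaining cells. Osm, oncostatin M, was at 70.9 and 132 CPM, and Tnfaip3, a brake on NF-kB signaling, at 125 and 214. Tnf was at 360 and 468 CPM (log2 ratio 0.38), and Il6 at 17.2 and 18.0. Il18, the cytokine that the study places downstream of GSDME, was at 27.6 CPM in WT and 28.8 in GSDME-KO, and its receptor genes Il18r1 and Il18rap were near 0, at 0.984 and 0.859 CPM and at 0 and 0.429. The interval of Il18r1 in WT reached 3.56 CPM, so a level up to there was not detectable at this depth.

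Il10, the anti-inflammatory cytokine, was at 31.5 CPM (24.3 to 40.2) in WT and 88.9 (77.2 to 102) in GSDME-KO resident macrophages, a log2 ratio of 1.5 (1.09 to 1.92). In other C1q cells the level was 208 CPM in WT and 120 in GSDME-KO, a log2 ratio of -0.79 (-0.98 to -0.60). The genotypes were thus ordered oppositely in the 2 kinds of macrophage by level. The share of cells with Il10 differed little, at 9.56% in WT and 10.2% in GSDME-KO resident macrophages before thinning and 3.11% and 4.48% after it, a difference of 1.37 points (-1.5 to 4.21). With exactly 3 resident genes the log2 ratio was 0.01 (-1.0 to 1.05). In the GSDME-KO resident macrophages 37 of 207 Il10 UMIs were in 1 cell, and without the top cell of each library the log2 ratio was 1.43.

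Among chemokines, Ccl8, a ligand for monocyte and eosinophil receptors, was at 394 CPM (367 to 423) in WT and 958 (919 to 999) in GSDME-KO. It was seen in 98 of 366 and 162 of 413 cells, and its log2 ratio was 1.28 (1.16 to 1.40), against 2.21 in other C1q cells. The monocyte attractants Ccl2 and Ccl7 were at 1351 and 1751 CPM and at 971 and 1456. Ccl4 was at 579 and 952 CPM. Ccl12 went the other way, at 358 and 253 CPM. Of 9 compared CC chemokines, 2 were at least 1.5-fold higher and none lower, against 5.71% higher over all compared genes. The median log2 ratio of these chemokines was 0.37. Of the CXC chemokines, Cxcl1, a neutrophil attractant, was at 230 and 142 CPM, and Cxcl2, the most abundant of them, at 3854 and 4287.

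Genes of recruited macrophages had no common direction, while most genes of lipid-handling macrophages were on the higher side in GSDME-KO, few of them past 1.5-fold. Of 8 compared monocyte-derived genes, 2 were at least 1.5-fold higher in GSDME-KO resident macrophages and 1, Fn1, lower, and the list summed to 2185 CPM in WT and 1924 in GSDME-KO. Ccr2, the receptor that draws monocytes into tissue, was at 79.2 CPM in WT and 146 in GSDME-KO (log2 ratio 0.88, 0.61 to 1.16). The thinned share of cells with it was 4.24% and 11.4%, against 0.196% and 0.259% of Pdgfra cells. In other C1q cells that share was 11.5% and 18.2%, and the log2 ratio was 0.24. The Ccr2 ratio was uneven along the resident gradient: 0.44 (0.06 to 0.81) with 2 resident genes, 1.69 (1.16 to 2.26) with 3 and 0.16 (-0.71 to 1.01) with all 4. By thinned share, Lyz1 and Ifitm6 of the monocyte-derived list were also higher in GSDME-KO. The differences were 3.99 points (1.18 to 6.93) and 2.39 points (0.292 to 4.68). S100a6 of that list went the other way, at -7.42 points (-14.4 to -0.383). Spp1, osteopontin, was at 36.4 and 101 CPM (log2 ratio 1.48), and Fabp5, a fatty acid carrier, at 99.9 and 234 (log2 ratio 1.23). In other C1q cells the pooled log2 ratios were -0.02 and 0.09. For Spp1 that value combined 0.54 (0.36 to 0.72) in cells with no resident gene and -0.88 (-1.09 to -0.67) in cells with 1, and for Fabp5 0.00 and 0.35. Trem2, the lipid receptor, was at 267 and 298 CPM, and Gpnmb at 29.0 and 37.4, so not all genes of the state moved. Of 17 compared lipid-associated genes, 13 were above 0, 3 at least 1.5-fold higher and none lower, with a median log2 ratio of 0.18. Over all 7691 compared genes, 3197 were above 0 and 5.71% at least 1.5-fold higher. The lipid-associated list summed to 34832 CPM in WT and 34004 in GSDME-KO. The monocyte genes Ly6c2 and Chil3 had no UMI in the resident macrophages of either library, which allows up to 1.82 CPM in WT and 1.58 in GSDME-KO.

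Major histocompatibility complex class II genes, which present antigen to T cells, were higher in GSDME-KO resident macrophages as a set. The 7 genes summed to 21915 CPM in WT and 31109 in GSDME-KO, and to 50259 and 53214 in other C1q cells. All 7 ratios were above 0 and 1 was at least 1.5-fold higher, against 5.71% higher over all compared genes. The median log2 ratio was 0.49, against 0.13 in other C1q cells and -0.08 over all compared genes. H2-Ab1 was at 3567 and 5334 CPM (log2 ratio 0.58, 0.54 to 0.62) and Cd74, the invariant chain, at 10288 and 14402 (0.49, 0.46 to 0.51). The thinned share with H2-Ab1 was 58.5% in WT and 76.9% in GSDME-KO, a difference of 18.4 points (11.7 to 24.9), against 2.02% of Pdgfra cells in each library. The difference was uneven along the resident gradient: the summed level was 32150 and 38929 CPM in cells with 2 resident genes, 14812 and 26688 with 3, and 10998 and 13054 with all 4.

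The transcription factor genes Klf4, Jun and Fos were lower in GSDME-KO resident macrophages. Klf4, a Kruppel-like factor, was at 2124 CPM (2061 to 2188) in WT and 873 (835 to 912) in GSDME-KO, a log2 ratio of -1.28 (-1.36 to -1.21). It was lower too in other C1q cells, from 823 to 417 CPM, and in the remaining cells, with a log2 ratio of -0.52. Jun, an AP-1 subunit, was at 2448 and 1297 CPM (log2 ratio -0.92, -0.98 to -0.85), whereas in other C1q cells it was at 917 and 894 and in the remaining cells its log2 ratio was 0.21. Fos, its partner, was at 1838 and 1135 CPM (log2 ratio -0.70), with -0.14 in other C1q cells. The pooled Jun value in other C1q cells combined log2 ratios of 0.06 with no resident gene and -0.20 (-0.33 to -0.07) with 1. Thinned to 1000 UMIs, Klf4 was seen in 76.3% of WT and 44.0% of GSDME-KO resident macrophages and Jun in 67.8% and 42.0%. In other C1q cells the thinned shares were also lower in GSDME-KO, at 41.0% and 25.9% for Klf4 and 38.7% and 29.8% for Jun. In Pdgfra cells Jun was at 57.4% and 55.8%, so that cell type did not show the Jun difference. Fibro-adipogenic cells express these genes themselves, and the shares there are no measure of free RNA.

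The 14 genes of the KLF4 and JUN list, which the study drew from these same samples, are not independent evidence of a direction, and 3 of them chose the cells. Of the 14, 7 were at least 1.5-fold lower in GSDME-KO and none higher, with a median log2 ratio of -0.60, against 0.00 in other C1q cells and 0.21 in the remaining cells. Txnip, a regulator of glucose uptake, was at 432 and 258 CPM, and Ier2, an immediate-early gene, at 554 and 371. Klf2, a further Kruppel-like factor, was at 912 and 983 CPM, although fewer cells held it: the share was 49.4% in WT and 32.8% in GSDME-KO after thinning, a difference of -16.6 points (-23.4 to -9.59), and 77.3% and 63.4% before. In Pdgfra cells the thinned share of Klf2 was 30.1% and 30.3%. Of 24 immediate-early genes, which also respond to tissue digestion, 4 were at least 1.5-fold lower and 2 higher, with a median log2 ratio of -0.13. Those counts were near the shares over all compared genes, 12.2% lower and 5.71% higher. Egr1 was at 2279 and 1694 CPM, Junb at 3365 and 3169, and Jund at 2314 and 2419.

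**Figure D3:**
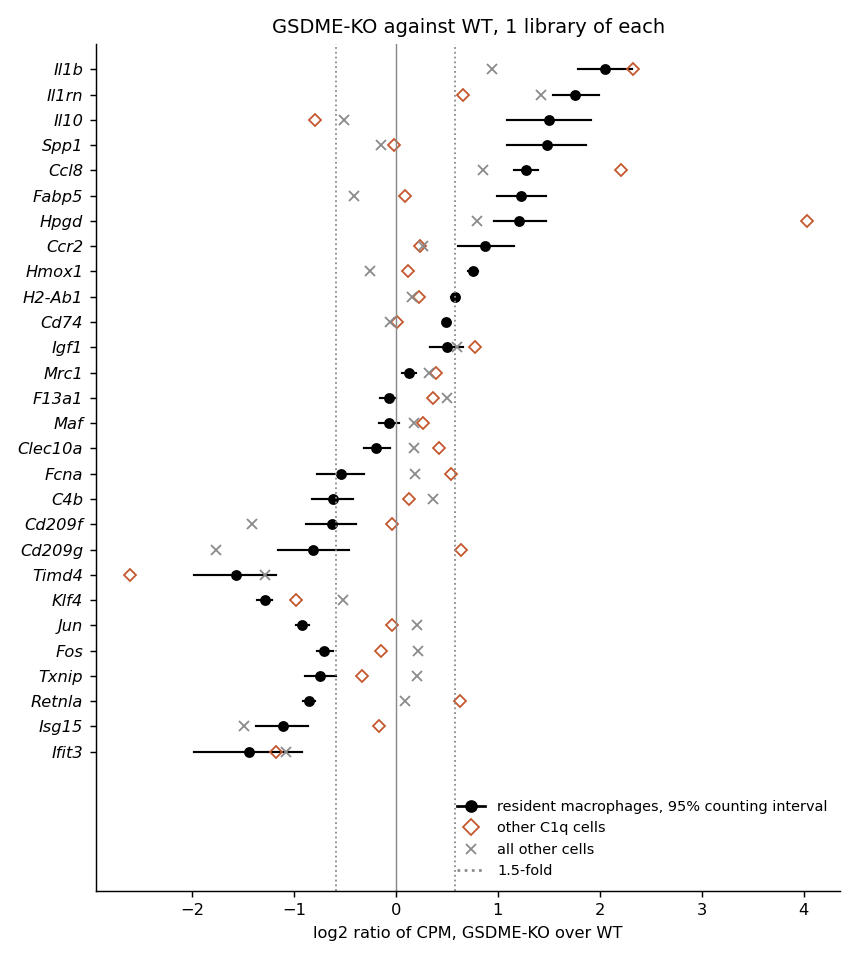
log2 ratio of CPM, GSDME-KO over WT (x axis), for 28 genes in resident macrophages (black points with 95% counting intervals), other C1q cells (diamonds) and all other cells (crosses). Klf4 stands at -1.28 and Il1b at 2.05 in resident macrophages, while Jun is at -0.92 there and at -0.04 in other C1q cells.

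Identity genes split in GSDME-KO. Of the 23 resident markers outside the rule, 7 were at least 1.5-fold lower and none higher, with a median log2 ratio of -0.13. Over all compared genes, 12.2% were at least 1.5-fold lower. Timd4 was at 91.5 CPM (78.9 to 106) in WT and 30.9 (24.2 to 38.9) in GSDME-KO, a log2 ratio of -1.57 (-1.98 to -1.17). The thinned share of cells with it was 10.2% and 4.98%, against 0.0652% and 0.0518% of Pdgfra cells, and it was lower as well in the remaining cells, with a log2 ratio of -1.28. Cd209f and Cd209g had log2 ratios of -0.63 and -0.81, and C4b one of -0.62. Fcna was at -0.54, inside 1.5-fold. As means over cells, Cd209f, Cd209g and C4b were at -0.41, -0.36 and -0.49, inside 1.5-fold too. Their thinned share differences were -1.23 points (-5.16 to 2.57), -1.10 (-4.30 to 1.91) and -6.23 (-11.7 to -0.778). The intervals of the 2 lectins thus held 0. The markers with the highest levels did not share this direction. F13a1 had a log2 ratio of -0.07, Mrc1 of 0.13, the transcription factor Maf of -0.07, Pf4 of -0.06 and Gas6 of 0.11. Wwp1, a ubiquitin ligase, and Igf1, the growth factor, were on the higher side at 0.53 and 0.50. Of the genes that chose the cells, Lyve1 was at 313 and 172 CPM (log2 ratio -0.86), Cd163 at 385 and 265 (-0.54), Folr2 at 1118 and 936 (-0.26) and Cbr2 at 502 and 543 (0.11), as a description.

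Retnla, a secreted protein of alternatively activated macrophages, was at 2627 CPM in WT and 1455 in GSDME-KO resident macrophages (log2 ratio -0.85, -0.91 to -0.79), and at 1804 and 2783 CPM in other C1q cells (0.63, 0.57 to 0.68). Its ordering between genotypes was opposite in the 2 kinds of macrophage. In resident macrophages it was seen in 23.7% of WT and 15.2% of GSDME-KO cells after thinning. The other alternative activation genes Mgl2 and Clec10a, lectins, were at 566 and 552 and at 536 and 472 CPM.

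Interferon-response genes were lower in GSDME-KO resident macrophages, as in the whole library. Of 16 compared, 11 were at least 1.5-fold lower and none higher, against 12.2% lower over all compared genes. The median log2 ratio was -0.70, against -0.34 in other C1q cells and -0.43 in the remaining cells. Isg15, a ubiquitin-like antiviral protein, was at 186 and 85.9 CPM (log2 ratio -1.11), and at -1.49 in the remaining cells. Irf7, the factor that amplifies interferon genes, was at 89.1 and 42.5 CPM and Ifi27l2a at 1681 and 986.

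The heat shock list had a median above 0 in each kind of cell, and heme and iron genes had no common direction. Of 10 heat shock genes, 6 were at least 1.5-fold higher in GSDME-KO, with a median log2 ratio of 0.70, but the median was 0.74 in other C1q cells and 0.84 in the remaining cells. Hspd1, a mitochondrial chaperone, was at 170 and 415 CPM (log2 ratio 1.28). Srxn1, an antioxidant enzyme, was at 72.3 and 207 CPM (log2 ratio 1.52). Of 13 genes on the heme and iron list, 2 were at least 1.5-fold higher and none lower. Over all compared genes, 5.71% were at least 1.5-fold higher. Of the 13, 6 were above 0, and the median log2 ratio was -0.06. The higher genes were Hmox1 and Hpgd, although Hpgd acts on prostaglandins and not on heme or iron. Hmox1, which degrades heme, was at 2287 CPM in WT and 3874 in GSDME-KO (log2 ratio 0.76, 0.71 to 0.81), whereas its log2 ratio was 0.12 in other C1q cells and -0.25 in the remaining cells. Hpgd, which inactivates prostaglandins, was at 86.1 and 200 CPM in resident macrophages and at 6.25 and 102 in other C1q cells. The iron storage genes Fth1 and Ftl1 had log2 ratios of 0.08 and 0.02. None of 20 lysosome genes passed 1.5-fold in either direction, with a median of 0.08.

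The other genes of the 12 highest ratios were Mpp7, a scaffold protein, Dot1l, a histone methyltransferase, Tpm3 and Gm21860. Tpm3 was at 322 and 800 CPM and its near-identical copy Tpm3-rs7 at 350 and 10.7. Both changes were as large in the remaining cells, with log2 ratios of 1.53 and -5.60, and Gm21860 had one of 1.41 there. Reads of near-identical copies may be split differently between libraries, and these values are uncertain.

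**Figure D4:**
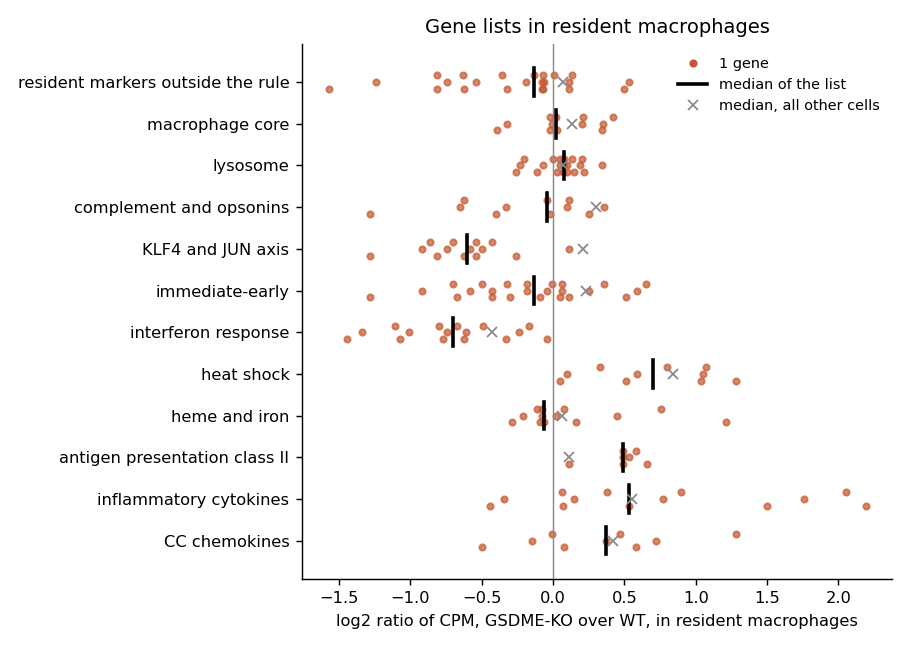
log2 ratio of CPM, GSDME-KO over WT (x axis), of each compared gene of 12 lists in resident macrophages; black bars are list medians and crosses the medians in all other cells. The interferon list lies below 0 at a median of -0.70, the class II list above 0 at 0.49, and the lysosome list at 0.08.

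Levels of F13a1 and Klf4 were higher with the number of resident genes, while those of Il1b and Ccl8 did not follow 1 order in WT. F13a1 in WT was at 184, 318, 960, 1612 and 1813 CPM in C1q cells with 0, 1, 2, 3 and 4 resident genes, and in GSDME-KO at 185, 455, 977, 1608 and 1691. Klf4 was at 1478, 2537 and 2855 CPM in WT cells with 2, 3 and 4 resident genes and at 755, 887 and 1272 in GSDME-KO, so it was lower at each number, with log2 ratios of -0.97, -1.52 and -1.17. Jun was likewise lower, at -0.63, -1.13 and -1.0. Il1b was higher at each number, with log2 ratios of 1.58, 3.62 and 3.36, although only 16.4 and 8.25 CPM in WT stood behind the last pair. Ccl8 had log2 ratios of 1.07, 1.08 and 2.15, and its WT level was 25.8, 129, 420, 383 and 359 CPM from 0 to 4 resident genes. Timd4 was at 47.9 and 5.79 CPM with 2 resident genes (log2 ratio -3.05), 105 and 39.2 with 3 (-1.43), and 159 and 103 with all 4 (-0.62). Cd209f had no steady direction, at -0.21, -1.24 and 0.26, and neither had Spp1, at 2.11, -0.25 and 0.36. Klf4, Jun, Il1b and Ccl8 thus had the same direction within each number as in the pooled cells.

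**Figure D5:**
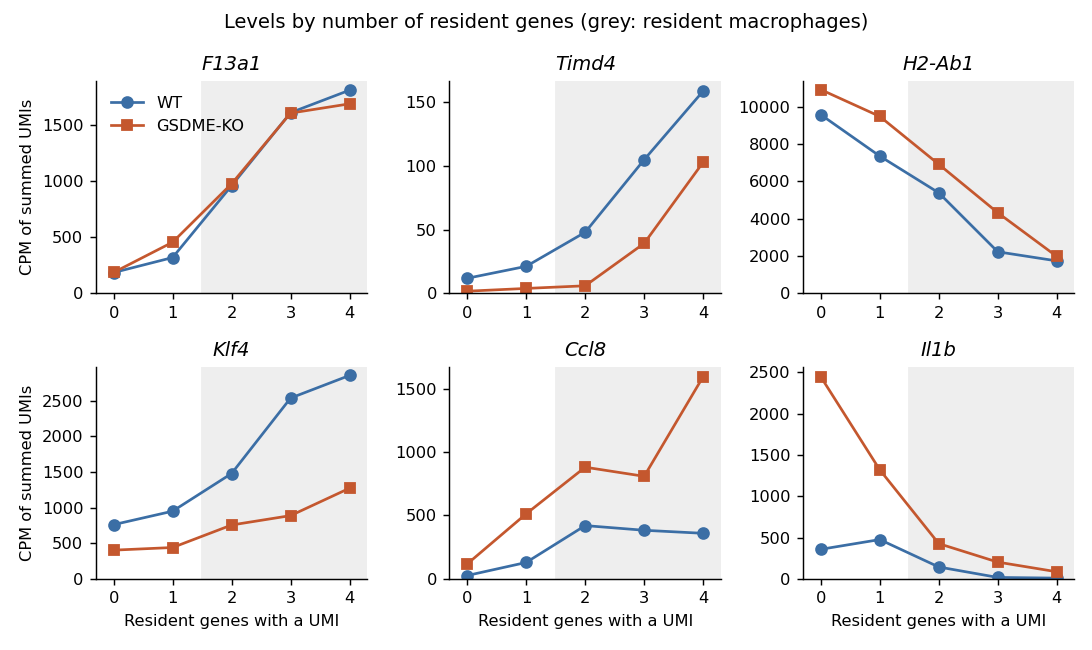
Level in CPM (y axis) of 6 genes in C1q cells with 0 to 4 resident genes (x axis), in WT (circles) and GSDME-KO (squares); the grey area holds the resident macrophages. F13a1 is close between genotypes except with 1 resident gene, at 318 CPM in WT and 455 in GSDME-KO. Klf4 is lower in GSDME-KO at every number, and Il1b is highest at 0 resident genes in GSDME-KO, at 2447 CPM.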

How the data were processed

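Cells of digested gastrocnemius were profiled by droplet single-cell RNA sequencing (10x Genomics), 1 library of each genotype. The submitters' processing notes name Cell Ranger 2.1.1 and build mm10, whereas the study's methods give a later Cell Ranger version. The authors deposited natural log values, ln(1 + UMIs per 10000 UMIs of the cell), for 19169 genes and 13432 cells, after doublet removal with DoubletFinder and filtering with a mitochondrial limit of 10%, per the study's methods. The library of each cell was read from its barcode suffix. UMIs were recovered, after reversing the log, as whole multiples of the smallest value of each cell: over 29528482 values the largest distance from a whole number was 0.247 UMI. The libraries held 44758518 (WT) and 50930010 (GSDME-KO) recovered UMIs. The step was tested on simulated data, where 500 of 500 cells were returned.

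UMIs were summed over cells and given as CPM, with exact Poisson intervals. Shares have exact binomial (Clopper-Pearson) intervals, differences of shares Newcombe intervals, and log2 ratios the exact interval of a binomial share. A count of 0 was set to 3 UMIs per library for a ratio. Genes needed 20 UMIs over both libraries and 10 CPM in 1. Genes named by rank had at least 50 CPM in 1 library and were the 12 highest and 12 lowest of each contrast, ranked by the interval bound nearest 0 between genotypes and by the smaller of both libraries' ratios against other C1q cells, and the genes of fixed lists. Retnla and Il10 were also named for their opposite directions, after their values were seen. Thinning drew 1000 UMIs per cell without replacement. No p-value was computed. The members and gene lists were chosen with earlier results of these data known. No cells were clustered and no further doublets removed here. Alternatives covered the choice of cells, depth, scaling and filters. Python 3.11.15, numpy 2.4.6, scipy 1.17.1 and pandas 2.3.3 were used. Some genes that these rules name are not reported here.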

Additional observations from a re-analysis of the deposited data

Results flagged for a closer look

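Of 2611 genes with at least 50 CPM in both kinds of C1q cell, 1 was higher in GSDME-KO resident macrophages and lower in GSDME-KO other C1q cells, and 16 were the other way round, each past 1.5-fold with counting intervals that left out 0. The difference between the kinds of cell was not tested. Il10, the anti-inflammatory cytokine, had a log2 ratio of GSDME-KO over WT of 1.5 in resident macrophages and -0.79 in other C1q cells. Retnla, a product of alternative activation, had ratios of -0.85 and 0.63, with at most 353 of 5338 WT UMIs in 1 cell. Ifit1, an interferon-induced gene, had ratios of -0.61 and 1.23, with 26 of 104 WT and 22 of 78 GSDME-KO UMIs in 1 cell. Fn1, encoding fibronectin, had ratios of -1.99 and 0.69.

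Among genes of matrix cells, the ratio in resident macrophages was -3.18 for Col1a1, -2.91 for Col1a2, -2.89 for Thbs4, -2.28 for Mmp2 and -1.97 for Sparc. It was -1.51 for Bgn, -1.31 for Col3a1, -1.27 for Igfbp6, -1.14 for Serpinh1 and -1.10 for Fstl1. In other C1q cells these ran from 0.89 for Igfbp6 to 1.61 for Thbs4. In resident macrophages 9 WT cells held 76.8% of the FAP marker UMIs. The fast-fiber contractile genes Mylpf, Tnni2 and Tnnt3 had ratios of -0.81, -0.79 and -1.03 in resident macrophages and of 2.56, 1.98 and 1.5 in other C1q cells, and of 2.06, 1.67 and 1.46 in the remaining cells.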

How the results depend on the processing

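No paired analysis was possible because each genotype had 1 library, and no replicate could be left out. Of 138 values recomputed for the shares, counts of genes and list medians, 112 stayed within a set limit and 26 moved past it. The limit was the counting interval for shares, 1.5 times for counts and a typical counting error for list medians. Sign was not part of the limit. The share difference among all cells, 0.0748 points, became -0.228 with at least 3 resident genes and counted as within it. Of the values for single named genes and the FAP list, 334 stayed within their counting interval and 249 moved beyond it. A further 12, with a main ratio past 1.5-fold, changed sign. Smaller ratios that changed sign were not counted apart. The alternative that leaves out cells rich in FAP markers, those within cells of exactly 2, 3 or 4 resident genes and the one without the top cell of a gene were chosen after seeing the data. The cause was not tested for any of these.

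The share difference in resident macrophages, GSDME-KO minus WT, was -0.885 points of all cells and -8.33 points of C1q cells after thinning to 1000 UMIs, and 0.895 points of all cells with F13a1 and Mrc1 in place of the 4 resident genes. Thinned to 2000 UMIs, the difference in the share with a UMI was 15.3 points for Igf1 and -9.83 points for Timd4.

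Genes at least 1.5-fold higher numbered 679 with at least 3 resident genes required, 222 with at least 100 UMIs and 1354 with no filter beyond 1 UMI in each library. Genes at least 1.5-fold lower numbered 294 with at least 100 UMIs and 2529 with no such filter. Against C1q cells with none of the 4 resident genes, 629 genes were at least 2-fold higher in cells with 3 or more.

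The class II median was 0.57 as a mean over cells and 0.57 when centred, 0.73 with at least 3 resident genes, 0.20 in cells with none of 8 further lineage genes and 0.44 without cells rich in FAP markers. With at least 3 resident genes, the median was 0.26 for CC chemokines, -0.35 for immediate-early genes, 0.19 for lysosome genes and 0.18 for core macrophage genes. In cells with none of the 8 lineage genes, only 73 in WT and 102 in GSDME-KO, it was 0.03 for CC chemokines, -0.85 for the KLF4 and JUN list, 0.56 for heat shock, 0.58 for heme and iron and -0.31 for immediate-early genes, which were at -0.23 as a mean over cells.

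Some ratios of named genes past 1.5-fold in the pooled cells changed sign. In cells with none of the 8 lineage genes they were Cd209f at 0.41, Cd209g at 1.29, Chpt1 at 0.11, Cxcl9 at -1.42 and Fmod at 0.31. With at least 3 resident genes Cxcl9 was at -0.36. In cells with exactly 3 resident genes they were Chpt1 at 0.06, Cxcl9 at -1.38, Spp1 at -0.25 and Thbs4 at 0.04, and with all 4 Cd209f at 0.26 and Fabp5 at -0.07. Depth limits rare genes: Cxcl9 had 9 UMIs with at least 3 resident genes.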

Other observations

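Of 18 cell cycle genes, 8 had enough UMIs to compare in resident macrophages. Their median log2 ratio was -0.22, with 2 above 0. Of the 8, 1 was at least 1.5-fold higher in GSDME-KO, against 5.71% higher over all compared genes. Mki67, a marker of cycling cells, was at 8.37 CPM in WT and 8.59 in GSDME-KO, against 22.2 and 22.8 in other C1q cells, and after thinning to 1000 UMIs it was seen in 0.847% and 0.249% of resident macrophages. Other genes of the list were common: H2az1, a histone variant, was at 1438 and 1123 CPM, and Pcna, a replication clamp, at 331 and 304. Of 12 compared growth and repair factors, 1 was at least 1.5-fold higher and none lower, beside that same 5.71%. The higher gene was Pdgfb, a growth factor for mural cells, at 26.1 and 48.9 CPM (log2 ratio 0.91, 0.43 to 1.41). Hbegf, a further growth factor, was at 491 and 460 CPM. Areg, an epidermal growth factor family ligand, was at 16.2 and 21.5 CPM in resident macrophages and at 24.6 and 247 in other C1q cells. The metallothionein Mt1 was at 2712 and 4346 CPM, with a log2 ratio of 0.68 in resident macrophages and 0.74 in the remaining cells.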
